A study of Homo sapiens with 4 samples.

Results

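Human induced cortical neurons that received both TDP-43 CRISPR interference and 5-azacytidine were compared with untreated control neurons, and the change was set beside the sum of the changes under each treatment alone. The comparison rests on 2 of the 4 PacBio Iso-Seq libraries of the series, 1 combined and 1 control. The other 2, knockdown alone and azacytidine alone, entered for the sum. All cells were i3N neurons derived from the KOLF2.1J induced pluripotent stem cell line, a widely shared reference line, by a doxycycline-inducible NGN2 transgene, and all carried a constitutive dCas9-BFP-KRAB repressor and a lentiviral guide RNA under puromycin selection. The control library came from cells with a non-targeting guide and no drug. The knockdown library had a guide against TDP-43 and no drug, the azacytidine library had the drug at 5 µM for 72 hours and carries the control label for the guide, and the combined library had both the TDP-43 guide and the drug. The guide-bearing cells were stable pools and not single clones, NGN2 drives a single neuronal fate, and the harvest day of each library was not given in the sources used here.

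TDP-43, encoded by TARDBP, is a nuclear RNA-binding protein that binds UG-rich sequence and keeps cryptic exons, intronic stretches that are normally ignored by the spliceosome, out of mature transcripts. Its loss from the nucleus is a hallmark of amyotrophic lateral sclerosis and of a form of frontotemporal dementia. 5-Azacytidine is a cytidine analogue that is built into RNA and, in cells that synthesise DNA, into DNA, where it traps DNA methyltransferases and lowers cytosine methylation. It is also toxic to dividing cells. The combined library therefore asks whether the transcripts of neurons with both perturbations look like the 2 single changes laid on top of each other.

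The deposited counts were 2 per read and were halved. The libraries then held 595158 reads over genes in the control, 767621 in the knockdown, 466337 with azacytidine and 477622 in the combined library, which scaling by the trimmed mean of M-values (TMM) turned into effective sizes of 619929, 685301, 494164 and 484696 reads. A total of 8145 genes had a mean of at least 20 reads over the 4 libraries and were tested. With 1 library per group, none of the differences has a replicate check. The exact tests and their 95% intervals compare the reads of these libraries, cover counting error only, and cannot separate a treatment from anything else that differed between cultures. In bulk RNA, fewer cells of a type and less RNA per cell cannot be told apart. Reads are given in the order control, knockdown, azacytidine and combined throughout, log2 ratios are to the control with a pseudocount of 0.5 reads, and "called" means an adjusted p under 0.05 with a log2 ratio of at least 1 in size. The share of gene reads that reached the transcript table was 63.9%, 58.5%, 68.1% and 60.4%, and the full-length share of transcript reads was 28.2%, 23.3%, 35.7% and 31.2%, so the combined library stood between the single treatments in both.

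TARDBP itself (hg38, chr1:11012344-11030528) had 104, 72, 73 and 43 reads. Its level was lowest in the combined library, with a log2 ratio of -0.91 (95% interval -1.47 to -0.39) against -0.67 for knockdown and -0.18 for azacytidine. The sum of the single ratios was -0.85 and the combined value departed from it by -0.06 (-0.80 to 0.67). None of the 3 ratios reached a log2 size of 1, and the combined level was 52.9% of control.

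Combined treatment went with more called genes than either single treatment in these counts, in nearly equal numbers up and down. Between the combined and control libraries, 968 genes (11.9% of those tested) were called higher and 957 (11.7%) lower, 1925 in all (23.6%). The same test called 504 genes higher (6.19%) and 173 lower (2.12%) for knockdown, 677 in all (8.31%). For azacytidine it called 541 higher (6.64%) and 809 lower (9.93%), 1350 in all (16.6%). A log2 ratio of at least 1 in size, with no test, was reached by 24.5% of the genes in the combined library, 9.09% under knockdown and 18.2% under azacytidine, and a departure of that size by 18.9%. All 3 comparisons share the control library, so their agreement carries no weight of its own and only their values are set side by side. Genes called higher under combined treatment had a median log2 ratio of 1.37, beside medians for the same genes of 0.47 under knockdown, 0.85 under azacytidine and 1.27 for the sum. Genes called lower had a median of -1.68, beside 0.12, -1.22 and -1.24. Both sets were picked by the combined value, which favours a combined median more extreme than the sum. Their median transcript length was 3451 bases for the higher genes and 4514 for the lower ones, against 4009 over all genes tested.

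For each gene the departure is the combined log2 ratio minus the sum of the single log2 ratios, so a departure of 0 means that the effects added up on the log scale. The exact interval of the departure held 0 for 6454 genes (79.2%), but counting error alone kept most of these intervals wide. The interval lay within -1 and 1, so that the combined value was within a log2 of 1 of the sum, for 1429 genes (17.5%). Its median width was 2.37 log2 units for genes with a mean of 20 to under 50 reads and 0.57 for those with 400 or more. A departure was called for 173 genes above the sum (2.12%) and 488 below it (5.99%), 661 in all (8.12%). Under the scaling used, 73.8% of the called departures were below the sum, against 58.0% when libraries were scaled by total reads and 62.4% with DESeq2 size factors. The median departure over all genes was -0.12, 0.04 and -0.00 under the 3 scalings, and the median combined log2 ratio was 0.05, so departures near those values are not distinguished from scaling.

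**Figure D1:**
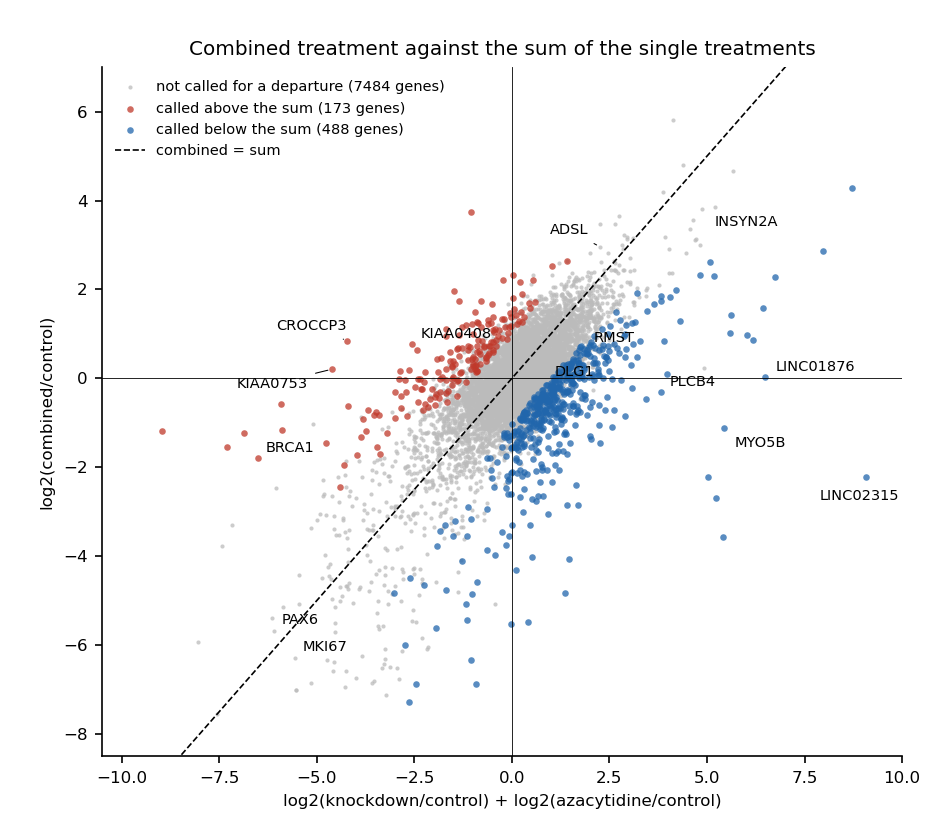
Each of the 8145 tested genes is a point, with the sum of the log2 ratios of knockdown and azacytidine to control on the horizontal axis, the log2 ratio of the combined library to control on the vertical axis, and equality as a dashed line. The 173 genes called above the sum (red) and the 488 called below it (blue) lie off the line, and PAX6 and MKI67 lie near it at the lower left.

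The 10 genes with the firmest loss under combined treatment included PAX6, PROM1 and MKI67, known as progenitor and proliferation markers. MIR99AHG, the host transcript of a microRNA cluster (chr21:15928296-16646364), had 346, 62, 6 and 4 reads, low in all 3 treated libraries. Its combined log2 ratio was -5.93 (-7.96 to -4.71), less far down than the sum of -8.04, though the interval of the departure, -0.25 to 4.18, held 0. PAX6, a transcription factor of neural progenitors, had 290, 313, 3 and 4 reads, close to control under knockdown and nearly absent in both libraries with the drug. Its combined ratio of -5.68 (-7.71 to -4.45) stood beside a sum of -6.11. MKI67, the proliferation antigen Ki-67, followed the same pattern with 142, 154, 2 and 1 reads and a combined log2 ratio of -6.29 (-12.11 to -4.29). COL4A6, a basement membrane collagen chain, had 103, 114, 0 and 0 reads and was at least 26.8-fold lower against a limit of 3 reads. SULF1, a heparan sulfate sulfatase, had 200, 250, 2 and 4 reads and a combined log2 ratio of -5.15 (-7.18 to -3.91).

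In other genes of this set the combined library was lower than both single treatments. PROM1, the progenitor surface protein prominin-1, had 117, 103, 17 and 1 reads. Its departure was called, at -3.25, and rests on the single combined read. HEPH, a copper-dependent ferroxidase, had 85, 82, 12 and 0 reads, at least 22.2-fold below control, and its departure was called with the upper bound of the interval at -1.18. NRXN3, a presynaptic adhesion protein, had 76, 73, 7 and 0 reads and was at least 19.8-fold lower. Here the upper bound of the departure was -0.23 and no call was made. BRIP1, a helicase of DNA repair, had 70, 65, 1 and 0 reads and was at least 18.2-fold lower. The interval of its departure reached up to 5.59 and held 0, so these counts cannot show a further loss beyond azacytidine alone. The non-coding gene ENSG00000280614, on chromosome 21 (8393419 to 8394341), had 382, 103, 154 and 10 reads and departed by -1.83 (-3.02 to -0.89).

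Genes with the firmest gain included a purine synthesis enzyme and several neuronal or poorly characterised genes. ADSL, adenylosuccinate lyase of purine synthesis (chr22:40346461-40390463), had 93, 341, 108 and 567 reads, 7.76-fold over control on the pseudocount scale in the combined library. Its log2 ratio of 2.96 (2.64 to 3.30) exceeded the sum of 2.26 by 0.69 (0.23 to 1.15). The annotated gene ENSG00000284431 overlaps ADSL on the same strand and had 47, 180, 74 and 464 reads, so reads may be divided between the 2 entries. With the reads of both added, 140, 521, 182 and 1031, the departure was 0.78 (0.41 to 1.14). SGSM3, on the same strand, overlaps ADSL and ENSG00000284431. Reads may be divided with it too, and its reads were not summed. MVP, the major vault protein, had 6, 58, 9 and 93 reads, high in both libraries with the TDP-43 guide, and its log2 ratio of 4.19 (3.13 to 5.79) stood beside a sum of 3.87. INSYN2A, a factor of inhibitory synapses, had 5, 75, 10 and 60 reads, with a combined ratio of 3.80 against 3.62 under knockdown alone. UNC5B, a netrin receptor, had 3, 14, 38 and 70 reads and a log2 ratio of 4.67 (3.29 to 7.21), beside a sum of 5.66. CARMIL3, a regulator of actin filament ends, had 13, 54, 70 and 109 reads and a ratio of 3.37 that fell short of the sum of 4.57 by a departure of -1.20 (-2.34 to -0.22), which was not called. BCAS4 had 5, 0, 21 and 58 reads and a called departure whose lower bound was 1.36. The non-coding gene ENSG00000227733 had 5, 16, 28 and 242 reads and the highest lower bound of the 10 genes named as firmest, at a log2 ratio of 4.71. ENSG00000291189, with 3, 3, 64 and 77 reads, and ENSG00000290596, with 9, 36, 54 and 88, completed the 10 firmest gains. Entries on the same strand also overlap ENSG00000227733 (LINC01138), ENSG00000290596 (FAR2P2) and MVP (PRRT2 and PAGR1). Reads may be divided there too, and those reads were not summed. BCAS4, ENSG00000227733, UNC5B, ENSG00000291189 and MVP reached the read minimum only through their combined reads. Entry by that route favours a gain and a departure above the sum.

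Mitosis genes were lower as a group under combined treatment. Of 20 listed genes of spindle, kinetochore and mitotic entry, 17 were tested and all 17 were called lower, against 11.7% of all genes tested. Their median log2 ratio was -3.95, beside 0.23 under knockdown, -2.71 under azacytidine and -2.74 for the sum. CDK1, the kinase that drives mitotic entry, had 50, 53, 5 and 0 reads and was at least 13.0-fold lower. KIF20A, a kinesin of cytokinesis, had 36, 59, 4 and 0 reads, and TOP2A, the topoisomerase of dividing cells, 109, 133, 3 and 2. In the list, 1 member was called below the sum. That was ASPM, a spindle pole protein, with 90, 198, 9 and 1 reads and a departure of -3.68 (-9.60 to -1.23), and 14 of the 17 departure intervals held 0. The list's median departure was -0.97, or -0.65 when counts under the limit of 3 reads were raised to it. Since so few reads were left in both drug-treated libraries, a further loss under combined treatment could be resolved for few of these genes.

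The promoters of 2 mitosis genes are shown for a pair of sequence elements that textbook accounts tie to expression late in the cell cycle, because CDK1 and MKI67 had the lowest log2 ratios among list members with both elements. Capitals mark the cell cycle homology region TTTGAA and the CCAAT box, on either strand, in the window from 250 bases before to 50 after the RefSeq start (GRCh38.p14), for CDK1 at chr10:60778228-60778527 on the plus strand and for MKI67 at chr10:128126374-128126673 on the minus strand.
CDK1: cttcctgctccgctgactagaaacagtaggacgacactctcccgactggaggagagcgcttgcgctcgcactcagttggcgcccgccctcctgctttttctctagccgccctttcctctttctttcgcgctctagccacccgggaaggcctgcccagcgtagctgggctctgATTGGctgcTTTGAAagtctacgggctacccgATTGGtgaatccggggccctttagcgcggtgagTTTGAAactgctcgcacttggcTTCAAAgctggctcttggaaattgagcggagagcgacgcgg
MKI67: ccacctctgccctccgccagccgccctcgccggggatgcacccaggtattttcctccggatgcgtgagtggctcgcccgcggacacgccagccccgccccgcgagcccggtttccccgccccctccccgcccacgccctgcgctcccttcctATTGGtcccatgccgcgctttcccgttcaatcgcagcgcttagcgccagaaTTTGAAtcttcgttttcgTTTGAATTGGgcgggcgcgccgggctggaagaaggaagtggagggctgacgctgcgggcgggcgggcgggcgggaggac
The CDK1 window holds 3 matches to TTTGAA and 2 to CCAAT, and that of MKI67 holds 2 of each. TTTGAA was found in 10 of the 15 mitosis genes with a promoter entry and in 14.3% of the 6578 tested genes with one, and CCAAT in 13 of 15 and in 44.3%. CENPE, a kinetochore motor, had neither. Over all genes called lower, the shares were 23.1% and 50.7%. These are matches of letters, and binding was not measured.

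DNA replication genes were lower by less and did not all follow the sum. Of 14 tested members, 7 were called lower and none higher, against 11.7% and 11.9% of all genes. The median was -0.97 beside -1.33 under azacytidine and 0.10 under knockdown. RRM2, the small subunit of ribonucleotide reductase, had 79, 86, 3 and 2 reads and a log2 ratio of -4.68 (-8.02 to -3.05). CDC6, which loads the replicative helicase, had 47, 53, 6 and 4 reads, and the helicase subunits MCM5 and MCM6 had 55, 37, 7 and 12, and 39, 57, 19 and 10. Both called departures were above the sum. POLA1, the catalytic subunit of DNA polymerase alpha, had 65, 62, 5 and 30 reads. Its level was low with azacytidine alone but not called in the combined library, at -0.75 (-1.44 to -0.12), and the departure was 2.72 (1.31 to 4.62). LIG1, DNA ligase I, had 59, 42, 20 and 37 reads and a departure of 1.53 (0.51 to 2.61).

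Progenitor and Notch pathway genes were lower too. Of 12 tested members, 9 were called lower and none higher, against 11.7% and 11.9% of all genes. The median was -2.90 beside 0.02 under knockdown, -1.95 under azacytidine and -2.09 for the sum. The Notch receptors NOTCH3 and NOTCH2 had 37, 53, 2 and 0, and 46, 69, 3 and 1 reads, and the ligand JAG1 had 131, 188, 13 and 9. VIM, the intermediate filament of progenitors, had 61, 51, 21 and 7. NES, another such filament, had 64, 53, 36 and 42 reads and was not called. Basement membrane and matrix genes gave 8 lower calls and none higher among 10 tested, against the same shares of all genes, with a median of -2.40. COL4A5, the collagen chain that shares a promoter region with COL4A6, had 76, 165, 0 and 1 reads, FN1, fibronectin, 98, 144, 8 and 14, and FBN2, a fibrillin, 80, 148, 5 and 9. COL4A2 stood out by its departure, with 45, 60, 14 and 58 reads: it was low with azacytidine alone, the combined library was at 0.71 (0.13 to 1.32), and the departure of 1.78 (0.73 to 2.93) was called.

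Sums for markers of cell types are given next. Each of the progenitor markers is also in the progenitor or the mitosis list, and some mesenchymal markers are in the matrix list. The sums of these 2 marker sets are therefore not separate observations. The summed level of 9 progenitor markers was 1128, 1027, 168 and 120 CPM (reads scaled to the effective library size), and that of 8 mesenchymal markers was 90.3, 120, 30.4 and 6.19, where DCN and TWIST1 had no read in any library. Astrocyte markers summed to 197, 197, 101 and 94.9, with AQP4 at 0 throughout. The 11 pluripotency markers summed to 687, 791, 431 and 532, with SALL4 and DPPA4 called lower. LIN28A had 129, 200, 99 and 121 reads, while POU5F1, which defines the pluripotent state, had 2, 0, 2 and 0. Peripheral neuron markers summed to 384, 436, 389 and 287, with no call among 4 tested. GABAergic markers gave 18, 8, 6 and 11 reads in all. The 14 glutamatergic neuron markers summed to 2060, 2494, 2030 and 1789 CPM. Of 11 tested, 3 were called higher and 1 lower in the combined library, against 11.9% and 11.7% of all genes. NEUROD6 had no read in any library. The part of cell composition in the lower gene groups was not tested.

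**Figure D2:**
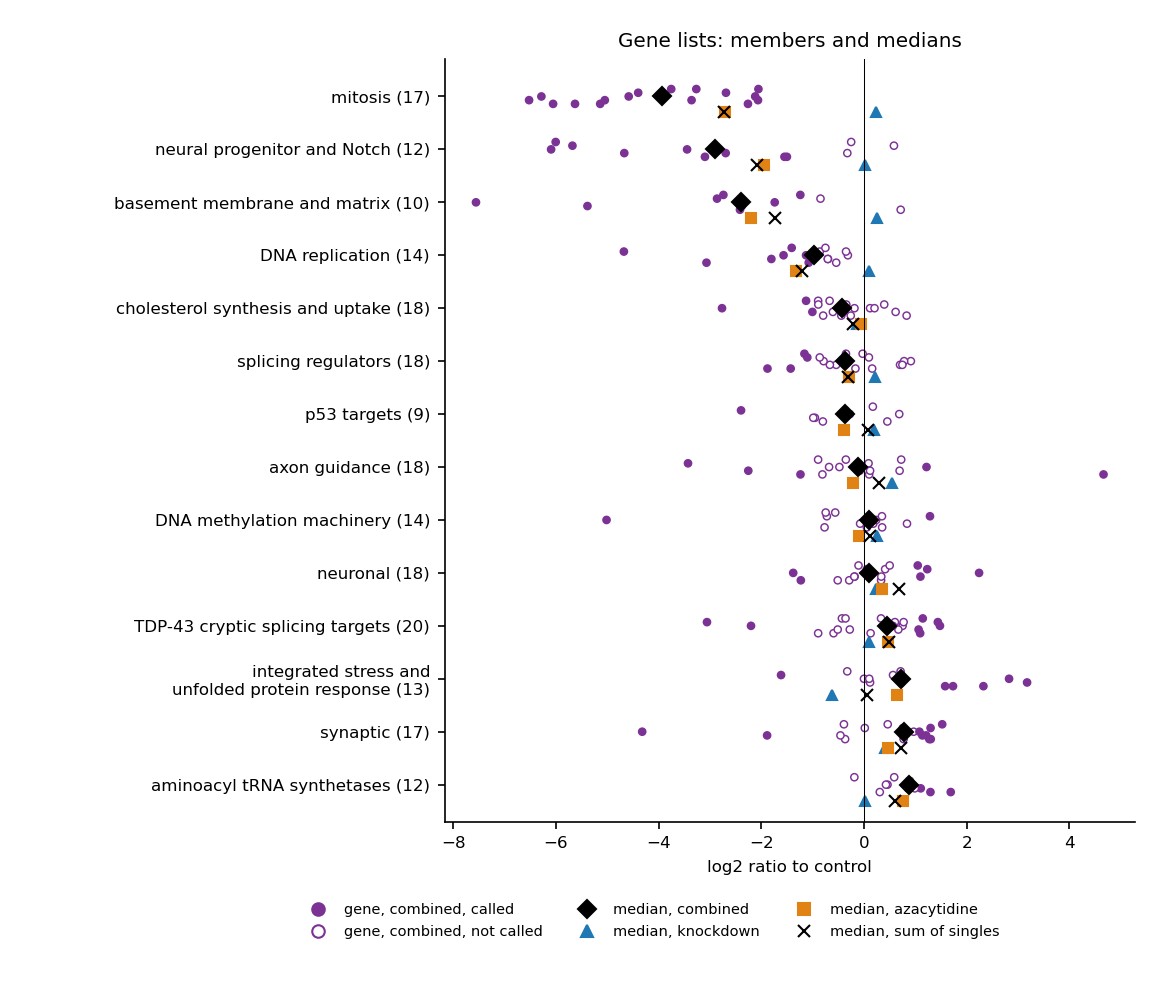
Rows are gene lists with the number of tested members in brackets, circles are the log2 ratios of members in the combined library to control (filled where called), and the horizontal axis is log2. Diamonds mark the median for combined treatment, from -3.95 for mitosis to 0.87 for aminoacyl tRNA synthetases, and triangles, squares and crosses the medians for knockdown, azacytidine and the sum.

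Of 18 tested neuronal genes, 4 were called higher and 2 lower, against 11.9% and 11.7% of all genes tested, so the lower calls were near the background. The list had a median of 0.10 that turned to -0.17 with uniquely assigned reads. RBFOX3, the neuronal nuclear antigen NeuN, had 35, 39, 90 and 131 reads and a log2 ratio of 2.24 (1.71 to 2.84). GAP43, a growth cone protein, had 118, 126, 181 and 191. ELAVL4, a neuronal RNA-binding protein, had 89, 256, 63 and 164 reads. Its ratio of 1.23 (0.86 to 1.63) was close to the sum of 1.20, and it was -0.16 with uniquely assigned reads. MAP2, the dendritic microtubule protein, had 540, 761, 319 and 162 reads and was called lower, at -1.38 (-1.64 to -1.13), with a called departure of -1.30 (-1.63 to -0.98). NEFL, the neurofilament light chain, behaved alike, with 343, 360, 250 and 114 reads and a departure of -1.03 (-1.43 to -0.63). L1CAM, an adhesion molecule of axons, had 63, 140, 126 and 106 reads: both single treatments and the combination were near a log2 ratio of 1, so the departure was -1.22 (-1.83 to -0.63).

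Among synaptic genes, 7 of 17 tested members were called higher, against 11.9% of all genes, and 2 lower, near the 11.7% of all genes. The median was 0.77. The called gains were spread over the presynaptic and postsynaptic sides. SHANK1, a postsynaptic scaffold, had 21, 69, 23 and 48 reads, BSN, a scaffold of the active zone, 35, 56, 36 and 68, and DLG4, the scaffold PSD-95, 134, 170, 204 and 243. SHANK2, the scaffold related to SHANK1, had 32, 37, 13 and 61 reads and the list's called departure above the sum, 2.16 (1.01 to 3.42). GRIA1, a glutamate receptor subunit, was called lower, with 36, 87, 14 and 1 reads and a departure of -4.43 (-10.33 to -2.06). GRIA2, another glutamate receptor subunit, had 100, 159, 150 and 79 reads and a combined log2 ratio of 0.01 (-0.43 to 0.46), with a called departure of -1.42 (-1.98 to -0.86).

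Axon guidance genes gave 2 higher and 3 lower calls among 18 tested, close to the 11.9% and 11.7% of all genes, with a median of -0.12 that turned to 0.17 with uniquely assigned reads, and 4 called departures, all below the sum. SLIT2, a repellent ligand, had 212, 323, 34 and 15 reads and a log2 ratio of -3.43 (-4.33 to -2.71), below the sum by -1.59 (-2.63 to -0.66). Its receptor ROBO1 had 273, 562, 181 and 133 reads. That gene was higher under knockdown alone, at 0.90, and at -0.68 (-0.99 to -0.38) in the combined library, with a departure of -1.31 (-1.71 to -0.92). ROBO2, a related receptor, had 393, 792, 343 and 284 reads and a departure of -1.11. PLXNA4, a semaphorin coreceptor, had 57, 112, 17 and 9 reads and was called lower at -2.25. DCC, the netrin receptor of growth cones, had 46, 94, 4 and 15.

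Of 13 tested genes of the integrated stress and unfolded protein responses, 5 were called higher and 1 lower, against 11.9% and 11.7% of all genes, with medians of 0.71 for combined treatment, -0.62 for knockdown and 0.63 for azacytidine. ATF5, a transcription factor of the stress response, had 8, 7, 65 and 60 reads, alike in both libraries with the drug, and a combined log2 ratio of 3.18 (2.19 to 4.54) beside a sum of 2.95. HERPUD1, an endoplasmic reticulum protein, had 21, 26, 85 and 119 reads, and TRIB3, a pseudokinase induced by stress, had 9, 5, 29 and 37. ASNS, asparagine synthetase, differed from these with 25, 11, 19 and 66 reads. Neither single treatment raised its count, the combined ratio was 1.73 (1.07 to 2.48), and the departure of 3.08 (1.78 to 4.56) was the list's only called one. ASNS reached the read minimum only through its combined reads, which favours a gain and a departure above the sum. HSP90B1, an endoplasmic reticulum chaperone, was the lower call, with 158, 106, 54 and 40 reads. ATF4 and DDIT3, the transcription factors of the pathway, were below the read minimum, with 12, 7, 18 and 11, and 3, 4, 18 and 8. Aminoacyl tRNA synthetases, which charge tRNAs, gave 3 higher calls and none lower among 12, against the same 11.9% and 11.7% of all genes. Their median was 0.87 beside 0.02 under knockdown and 0.76 under azacytidine. WARS1 had 48, 60, 117 and 122 reads, AARS1 68, 82, 100 and 131, and MARS1 121, 114, 166 and 204. No member of that list was called for a departure, and 9 of its 12 intervals held 0.

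The remaining lists held few calls. Over all genes 11.9% were called higher and 11.7% lower, so no excess of calls is read from the lists of this paragraph. Of 9 tested p53 targets, 1 was called lower: RRM2B, a ribonucleotide reductase subunit, with 36, 90, 40 and 5 reads and a departure of -4.03 (-5.93 to -2.63). CDKN1A, the cell cycle inhibitor, had 14, 16, 14 and 11 reads and was not tested. Cholesterol synthesis and uptake genes gave 3 lower calls among 18, STARD4, SC5D and MSMO1, with 38, 40, 16 and 4, 51, 53, 39 and 18, and 111, 107, 59 and 43 reads, and no called departure. The DNA methylation machinery gave 1 higher and 1 lower call among 14, with a median of 0.09 that turned to -0.39 with uniquely assigned reads. UHRF1, which guides the maintenance methyltransferase to replicating DNA, had 100, 147, 8 and 2 reads and was called lower at -5.02 (-8.35 to -3.40). DNMT1, that methyltransferase, had 81, 130, 47 and 81 reads, DNMT3A and DNMT3B, which set new methylation, 116, 109, 87 and 86, and 77, 90, 30 and 66, and none of the 3 was called. MBD1, a reader of methylated DNA, had 154, 206, 208 and 294 reads and was called higher. The demethylases TET1 and TET2 were called below the sum, at -1.58 (-2.71 to -0.51) and -2.50 (-4.06 to -1.12), with 39, 83, 29 and 18, and 20, 40, 30 and 9 reads.

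Splicing regulators gave no higher and 4 lower calls among 18, against 11.9% and 11.7% of all genes. Their median of -0.37 turned to 0.04 with uniquely assigned reads. The lower genes were MBNL2, HNRNPA1, MBNL1 and ELAVL2, with log2 ratios from -1.88 to -1.10. PTBP2, the neuronal polypyrimidine tract protein, had 196, 453, 152 and 120 reads: the gain under knockdown alone, 1.06, was not seen in the combined library, at -0.35 (-0.69 to -0.02), and the departure was -1.37 (-1.81 to -0.94). RBFOX1, a neuronal splicing factor, had 134, 206, 41 and 117 reads, low with azacytidine alone and near control in combination, with a departure of 1.06 (0.44 to 1.71). The combined ratio of RBFOX1 was 0.16, and -1.40 with uniquely assigned reads. Genes known for TDP-43-dependent cryptic splicing gave 5 higher and 2 lower calls among 20, with a median of 0.45. Over all genes the shares were 11.9% and 11.7%, so the lower calls were near the background. These are total gene counts, which do not separate normal from cryptic transcripts. CELF5, an RNA-binding protein, had 68, 86, 91 and 6 reads and a departure of -3.99 (-5.64 to -2.78). STMN2, a regulator of axonal microtubules, had 117, 104, 140 and 64 reads and was not called, and UNC13A, a synaptic vesicle priming factor, had 32, 47, 44 and 43. Germline genes that DNA methylation keeps silent in other tissues had 21, 16, 9 and 19 reads over 16 genes, and none was tested. Of 17 interferon-stimulated genes, 2 were tested and neither was called.

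Genes far below the sum were mostly high in the single treatments and near the control level in combination. Picking genes by a low departure favours this pattern. PLCB4, a phospholipase C of G protein signalling (chr20:9067825-9504593), had 103, 935, 142 and 65 reads and the best measured departure of this kind. Its log2 ratio was 3.03 under knockdown and 0.79 under azacytidine, but -0.31 (-0.78 to 0.15) in combination, a departure of -4.13 (-4.68 to -3.60). MYO5B, an unconventional myosin of vesicle transport, had 9, 103, 33 and 3 reads and a departure of -6.55 (-9.30 to -4.69). The long non-coding LINC01876 had 5, 85, 28 and 4, with a departure of -6.46 (-9.08 to -4.52). For MYO5B and LINC01876 the combined and control libraries were both low, and both single treatments were high.

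Others of this set had few reads or none in the combined library, among them LINC02315 and ZNF460, which ranked farthest below the sum. LINC02315 had 2, 53, 57 and 0 reads, and the upper bound of its departure was -7.33. ZNF460, a zinc finger gene, had 6, 54, 29 and 0 reads with an upper bound of -5.36, and LINC01505, high under knockdown alone, had 3, 76, 5 and 0 reads with an upper bound of -3.64. ARNT2-DT, a divergent transcript at ARNT2, was the exception that stayed above control, with 6, 58, 55 and 15 reads, a combined log2 ratio of 1.59 (0.23 to 3.33) and a departure of -4.83 (-6.68 to -3.40). LINC00927 overlaps ARNT2-DT on the same strand, so reads may be divided between them, and they were not summed. Of the genes named as far below the sum, all but PLCB4 reached the read minimum only through the single-treatment libraries. Entry by that route favours a departure below the sum. Because the control count enters both single ratios, a low control count counts in the sum for each of them, and the exact intervals, which use the 4 counts once each, are the measure to read. Being called below the sum favours high single values and a low combined one. In the 488 genes so called, median log2 ratios were 0.78 under knockdown, 0.32 under azacytidine, 1.06 for the sum and -0.62 in combination. Their median transcript length was 4907 bases, against 4009 over all genes tested.

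Genes far above the sum were low in 1 or both single treatments and not, or less so, in combination. Picking genes by a high departure favours this pattern. KIAA0408 had 88, 10, 110 and 117 reads: low under knockdown alone, at -3.21, and at 0.76 (0.35 to 1.18) in combination, a departure of 3.32 (2.35 to 4.57). BRCA1, a DNA repair gene, had 122, 100, 1 and 27 reads. It was nearly absent with azacytidine alone and less reduced in combination, at -1.80 (-2.48 to -1.21), with a departure of 4.71 (2.55 to 10.58). That departure rests on the 1 azacytidine read. BRCA1P1 overlaps BRCA1 on the same strand, so reads may be divided between them, and they were not summed. RFX4, a transcription factor of the RFX family, with 46, 37, 0 and 15 reads, and FAM153A, with 72, 67, 0 and 19, were listed at 0 reads with azacytidine alone and had lower bounds of the departure of 2.19 and 2.41.

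Several other genes of this set are less certain too. ANKRD10-IT1, an intronic transcript within ANKRD10, had 52, 1, 25 and 18 reads and a departure of 4.74 (2.54 to 10.81). CROCCP3, a pseudogene with close relatives whose reads could be exchanged, had 29, 7, 5 and 41 reads and a departure of 5.06 (3.28 to 7.35), and ENSG00000291133 had 73, 21, 0 and 25 with a lower bound of 4.43. DPY19L2P1 overlaps ENSG00000291133 on the same strand, so reads may be divided between them, and they were not summed. KIAA0753 and ENSG00000282936 are annotated with the same strand, start and end (chr17:6578147-6640711). KIAA0753, with 51, 17, 5 and 46 reads, was called above the sum, at 4.82 (3.30 to 6.82), while ENSG00000282936, with 4, 61, 21 and 6, was called below it, at -5.32 (-7.89 to -3.40). With the reads of both added, 55, 78, 26 and 52, the departure was 0.66 (-0.23 to 1.58), and neither call stood. They were the only 2 tested genes with identical coordinates. Of the genes named as far above the sum, all but BRCA1 and KIAA0408 reached the read minimum only through the control and combined libraries. Entry by that route favours a departure above the sum. Being called above the sum favours low single values and a high combined one. In the 173 genes so called, median log2 ratios were -0.57 under knockdown, -0.59 under azacytidine, -1.28 for the sum and 0.44 in combination. Their median transcript length was 3085 bases. Long non-coding genes were 7.36% of those above and 5.91% of those below the sum, against 2.90% of all tested genes with a gene type.

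**Figure D3:**
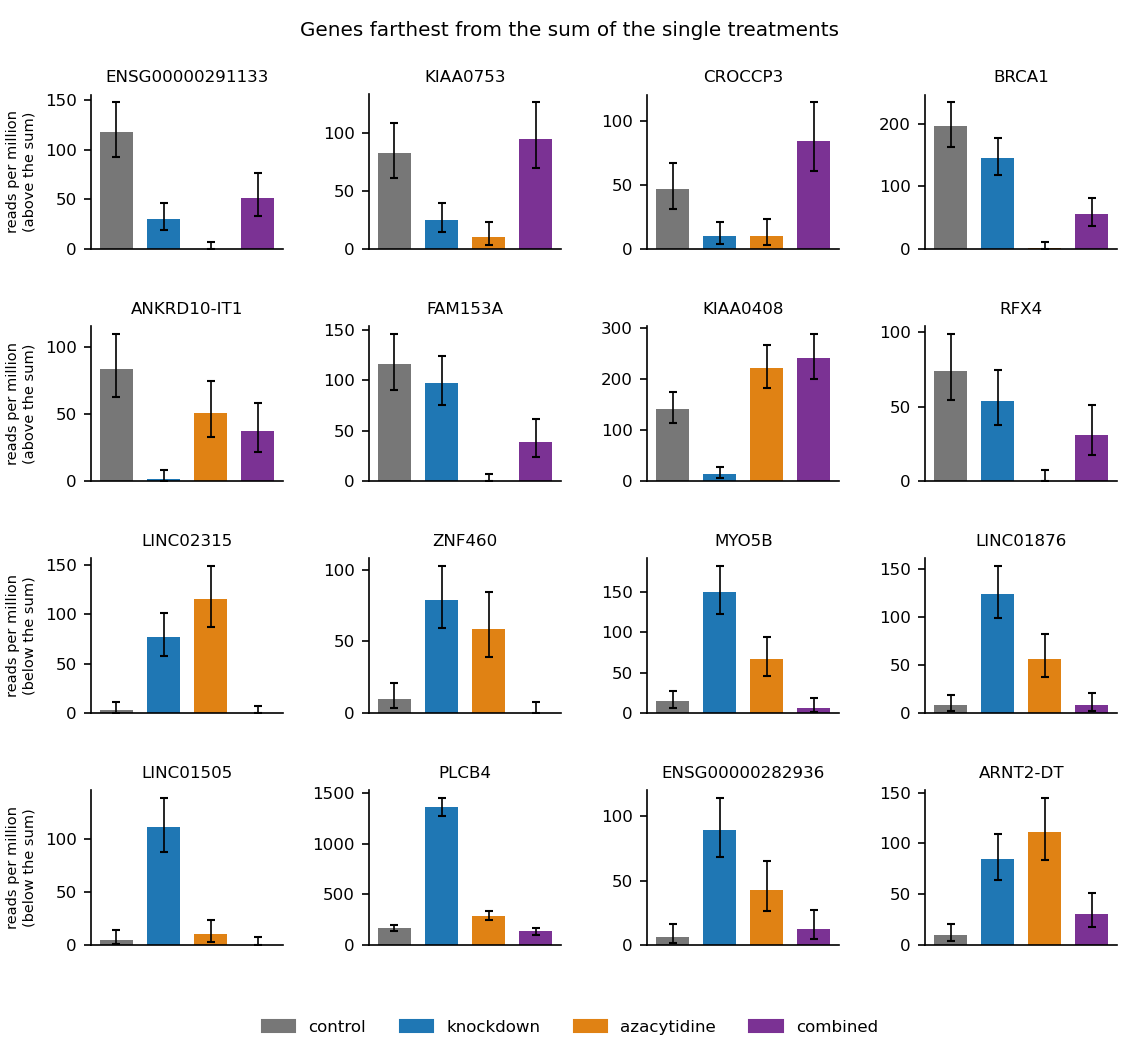
Bars show reads scaled to the effective library size (CPM) in each of the 4 libraries, coloured by group, for the 8 genes farthest above the sum (upper 2 rows) and the 8 farthest below it (lower 2 rows), with exact Poisson 95% intervals as bars. PLCB4, with 103, 935, 142 and 65 reads, is highest with knockdown alone, and KIAA0408, with 88, 10, 110 and 117, is lowest there.

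Where the single treatments pulled a gene in opposite directions, the combined library lay between them for some genes and followed azacytidine for others. RMST, a neural long non-coding RNA, had 40, 714, 7 and 50 reads. Its log2 ratios were 3.99 and -2.12 for the single treatments and 0.67 (0.05 to 1.31) in combination, below the sum of 1.88 by -1.21, with an interval of -2.42 to 0.33 that held 0. DLG1, a synaptic scaffold, had 19, 180, 3 and 14 reads and a combined ratio of -0.08 (-1.19 to 0.99). GNG12-AS1, with 18, 76, 0 and 0 reads, BEND7, with 16, 69, 1 and 1, and ILDR2, with 26, 98, 0 and 4, instead took the direction of azacytidine. DLG1, GNG12-AS1, BEND7 and ILDR2 reached the read minimum only through their knockdown reads, which favours a high knockdown value.

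In the opposite arrangement, MARCKSL1, an actin-regulating protein, had 63, 29, 160 and 67 reads and a combined ratio of 0.44 (-0.07 to 0.96) that matched the sum of 0.42 within its interval. RAB3A, a synaptic vesicle protein, had 24, 7, 47 and 19, ARL6IP4 30, 10, 70 and 18, and FTH1, the ferritin heavy chain, 14, 2, 63 and 8. None of these 3 was called in the combined library, with log2 ratios of 0.02, -0.37 and -0.43. ENSG00000310392.1 had 15, 3, 152 and 0 reads, the lowest count in combination, and reached the read minimum only through its azacytidine reads. RAB3A, ARL6IP4 and FTH1 likewise reached it only through theirs. For 3 genes raised strongly by both single treatments, the combination fell short of the sum. PCDHB3, a protocadherin, had 1, 25, 34 and 23 reads, FSIP2 2, 33, 42 and 14, and GOT1-DT 3, 48, 24 and 13, with departures of -4.43 (-10.44 to -2.18), -5.10 (-8.65 to -3.15) and -4.47 (-7.22 to -2.64). Among genes lowered by both, RALYL, an RNA-binding protein gene, had 179, 49, 24 and 16 reads and was lowest in combination, at -3.10 (-3.97 to -2.39), without reaching the sum of -4.55. GNAO1-DT, with 42, 11, 7 and 21 reads, was at -0.63 (-1.47 to 0.14). These genes were picked because both single ratios were large, which favours a sum farther from 0 than the combined value. PCDHB3, FSIP2 and GOT1-DT also reached the read minimum only through the single-treatment libraries, which favours a departure below the sum.

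Splicing was read from unannotated exon loci, parts of unannotated transcripts that lie outside every exon of the same strand in the authors' annotation. A locus is given as the estimated share of its gene's transcript reads. These are estimated counts, in which ambiguous reads were divided between transcripts by the authors' quantification, so not every such read was seen to hold the exon, and the uniquely assigned reads are given for named loci. A total of 169 loci had enough estimated reads for a test. Between the combined and control libraries, 21 loci were called higher (12.4%) and 4 lower (2.37%), 25 in all (14.8%). Knockdown alone gave 13 higher (7.69%) and 4 lower (2.37%), 17 in all (10.1%), and azacytidine alone 3 higher (1.78%) and 2 lower (1.18%), 5 in all (2.96%). With uniquely assigned reads alone the combined calls were 3 higher and 0 lower, and with full-length reads 5 and 0, over fewer loci tested, so that no lower call held. Of the 21, 14 were internal exons, 4 first exons and 3 last exons, and 13 had no read in the control. Their median change was 32.6 percentage points in combination, 14.4 under knockdown, 0.00 under azacytidine and 19.4 for the sum. These loci were picked for a high combined share, which favours a combined median above the sum, and over all 169 loci the medians were 5.68 for combined treatment and 4.56 for the sum. Over all loci, the interval of the departure from the sum excluded 0 for 21 (12.4%), 14 above and 7 below.

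Some loci were more frequent in both libraries with the TDP-43 guide than in the control. In EPB41L4A, a cytoskeletal adaptor gene, an internal exon of 75 bases (hg38, chr5:112267210-112267284, minus strand) was given 0 of 24 control reads, 23 of 39 knockdown reads, 0 of 39 azacytidine reads and 19 of 26 combined reads, of which 0, 7, 0 and 8 were uniquely assigned. That is 73.1% (Wilson 95% interval 53.9 to 86.3) in combination, and the departure from the sum was 14.1 points (-11.2 to 38.7). HDGFL2, a chromatin reader with a known cryptic exon, had 0 of 21, 8 of 20, 0 of 29 and 13 of 29 at chr19:4492015-4492152, an internal exon of 138 bases, with a departure of 4.83 points (-24.5 to 34.5) and 0, 7, 0 and 10 uniquely assigned reads. CREB3, a transcription factor of the endoplasmic reticulum, had a last exon at chr9:35738620-35738887 in 3 of 13, 16 of 17, 5 of 27 and 20 of 25 reads, with 2, 12, 4 and 15 uniquely assigned. That exon lies outside the annotated extent of CREB3. STMN2 had its unannotated last exon in 0 of 80, 12 of 31, 2 of 93 and 5 of 18 reads, and CAMK2B, a calcium-dependent kinase, an unannotated first exon in 0 of 28, 11 of 25, 0 of 42 and 13 of 45. For AARS1 the counts were 0 of 56, 12 of 70, 0 of 60 and 13 of 99. Uniquely assigned reads were 0, 12, 2 and 5 for STMN2, 0, 8, 0 and 8 for CAMK2B, and 0, 9, 0 and 8 for AARS1. In none of these 6 did the interval of the departure exclude 0. A count of 0 allows a share of up to 14.3% for the 21 control reads of HDGFL2 and up to 3.75% for the 80 of STMN2.

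Other loci had a larger estimated share in the combined library than the single treatments added up to. ZNF423, a zinc finger transcription factor, had an internal exon of 63 bases (chr16:49640443-49640505, minus strand) in 0 of 63, 4 of 76, 0 of 57 and 24 of 42 reads. The combined share was 57.1% (42.2 to 70.9), against 5.26% under knockdown, and the departure was 51.9 points (34.0 to 67.1), with 0, 1, 0 and 6 uniquely assigned reads. UBASH3B, a phosphatase gene, had an internal exon of 35 bases (chr11:122744155-122744189) in 0 of 33, 12 of 49, 0 of 31 and 14 of 25 reads, a departure of 31.5 points (5.73 to 54.0), with 0, 3, 0 and 5 uniquely assigned. SNAP91, a clathrin assembly protein of synapses, had a last exon of 1591 bases (chr6:83607955-83609545, minus strand) in 0 of 69, 1 of 81, 2 of 62 and 7 of 15 reads, a departure of 42.2 points (18.4 to 66.2), with 0, 1, 2 and 3 uniquely assigned. SEPTIN11, a filament protein, was counted more deeply, with 2 of 163, 34 of 218, 0 of 130 and 39 of 115 reads at an internal exon of 97 bases (chr4:77032457-77032553). Its share was 33.9% in combination and 15.6% under knockdown, a departure of 19.5 points (9.43 to 30.0), with 1, 15, 0 and 22 uniquely assigned. NFYA, a subunit of the CCAAT-binding factor, had a first exon (chr6:41073209-41073591) in 0 of 33, 0 of 49, 0 of 35 and 11 of 30 reads, and 2 of these 11 were uniquely assigned. The non-coding gene ENSG00000278730 had 0 of 27, 3 of 34, 6 of 28 and 14 of 31, with a departure of 14.9 points (-13.1 to 39.5) and 0, 1, 3 and 6 uniquely assigned reads. Its locus lies outside the annotated extent of the gene.

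**Figure D4:**
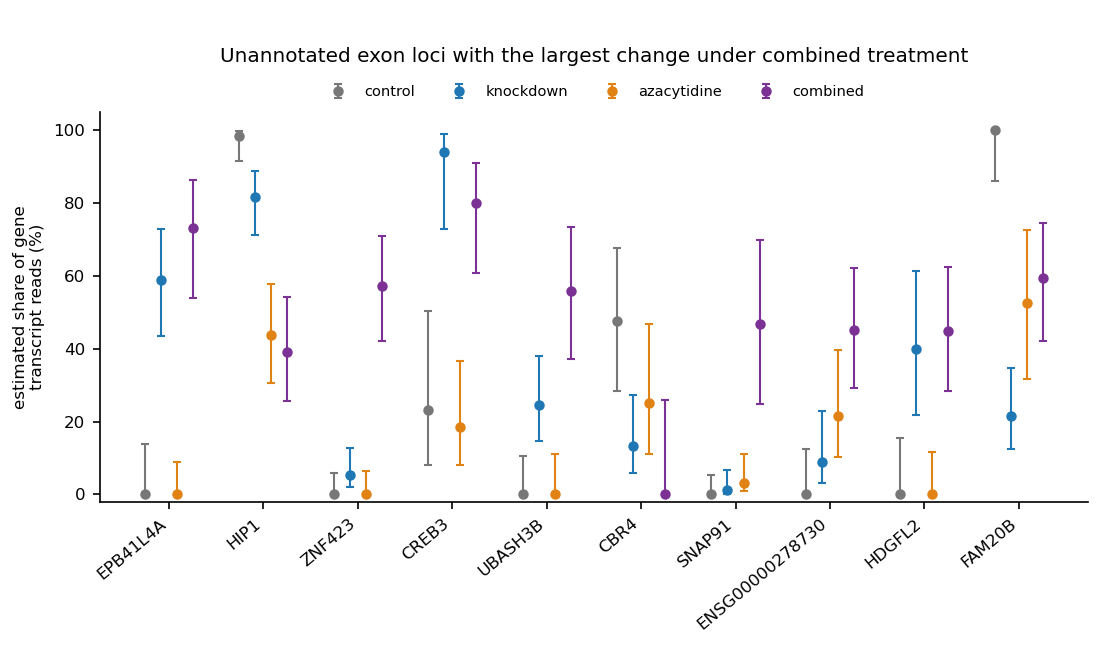
For the 10 unannotated exon loci with the largest change, points give the percentage of the gene's transcript reads given to the locus by the estimated counts in each library, with Wilson 95% intervals. ZNF423 and SNAP91 are near 0 in the other 3 libraries and at 57.1% and 46.7% in the combined one, while FAM20B is at 100% in the control and 59.4% in the combined library.

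Of the 4 loci called lower, 3 were first exons, and their values rest on estimated counts. HIP1, a clathrin adaptor, had a first exon absent from the authors' annotation (chr7:75639051-75639440, minus strand) in 63 of 64, 58 of 71, 21 of 48 and 16 of 41 reads. Its estimated share dropped from 98.4% (91.7 to 99.7) to 39.0% (25.7 to 54.3), a change of -59.4 points beside a sum of -71.4. Only 1, 5, 1 and 2 of these reads were uniquely assigned, and 1, 4, 1 and 0 were full-length. FAM20B, a xylose kinase of proteoglycan synthesis, had one (chr1:179026143-179026188) in 24 of 24, 11 of 51, 10 of 19 and 19 of 32 reads. Here both single changes, -78.4 and -47.4 points, summed to -126, more than a share can drop, and the combined change of -40.6 points departed by 85.2 (52.7 to 113). Uniquely assigned reads were 2, 2, 2 and 3 and did not show that pattern, and full-length reads were the same. In CBR4, a carbonyl reductase, an internal exon had 10 of 21, 5 of 38, 5 of 20 and 0 of 11, and in PTPRG, a receptor phosphatase, a first exon had 43 of 94, 55 of 139, 21 of 38 and 8 of 45. Uniquely assigned reads were 5, 3, 3 and 0 for CBR4 and 4, 6, 6 and 4 for PTPRG. MAP7D2, a microtubule-binding protein, had a called gain of an internal exon (20 of 34, 25 of 28, 22 of 22 and 32 of 35 reads) that also met the ceiling: the single changes summed to 71.6 points and the combined change was 32.6.

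The HIP1 and FAM20B first exons lie in CpG-rich start regions, shown because these loci overlap the RefSeq promoter windows (GRCh38.p14). RefSeq places a start of HIP1 within its locus and a start of FAM20B just before its locus. Neither is therefore read as a new start site. Both are unannotated in the authors' annotation, and the loci were not compared with RefSeq exons. Capitals mark CG dinucleotides, the sites that DNA methyltransferases can modify. The HIP1 window is chr7:75639193-75639492 on the minus strand and holds 41 of them, with the locus starting at base 53 of the printed sequence. The FAM20B window is chr1:179025874-179026173 on the plus strand and holds 47, with the locus starting at base 270.
HIP1: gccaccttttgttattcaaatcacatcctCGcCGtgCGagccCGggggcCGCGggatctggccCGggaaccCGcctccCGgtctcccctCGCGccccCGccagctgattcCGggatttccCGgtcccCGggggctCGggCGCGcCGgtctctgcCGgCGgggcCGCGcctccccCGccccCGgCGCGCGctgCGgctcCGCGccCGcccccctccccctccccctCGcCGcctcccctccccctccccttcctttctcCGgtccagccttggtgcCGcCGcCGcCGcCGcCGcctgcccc
FAM20B: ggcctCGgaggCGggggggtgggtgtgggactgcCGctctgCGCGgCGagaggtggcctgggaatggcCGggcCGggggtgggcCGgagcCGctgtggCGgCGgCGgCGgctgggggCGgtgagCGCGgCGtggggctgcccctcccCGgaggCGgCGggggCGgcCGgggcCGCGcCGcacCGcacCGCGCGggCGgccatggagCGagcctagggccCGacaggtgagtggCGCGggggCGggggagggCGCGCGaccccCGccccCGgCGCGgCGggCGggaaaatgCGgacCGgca
The median over tested genes with an entry was 30 CG dinucleotides in a window of this length, with 32 for genes called higher and 29 for genes called lower. Methylation was not measured in these libraries.

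Transcript usage, the share of a gene's transcript reads given to 1 transcript, was tested on estimated counts for 15834 transcripts of 5874 genes. In the combined library 517 were called higher (3.27%) and 569 lower (3.59%), 1086 in all (6.86%), in 711 genes. Knockdown alone gave 538 higher (3.4%) and 531 lower (3.35%), 1069 in all (6.75%), and azacytidine alone 409 higher (2.58%) and 488 lower (3.08%), 897 in all (5.67%). The interval of the departure from the sum excluded 0 for 2225 transcripts (14.1%). With uniquely assigned reads the combined calls were 26 higher and 28 lower (6407 tested), and with full-length reads 10 and 17 (2304 tested). The transcripts named next are given by estimated counts only. Their uniquely assigned reads are not given, so whether these changes hold without divided reads is not shown. In WASL, the actin nucleation promoter N-WASP, the unannotated transcript BambuTx9213 took 0 of 21, 16 of 25, 0 of 26 and 10 of 10 reads. The departure from the sum was 36.0 points (1.59 to 60.9). The main annotated transcript, ENST00000223023.5, fell from 21 of 21 to 0 of 10. BambuTx9213 leaves out exon 10 of 11 of that annotated transcript. The 109 coding bases of this exon (chr7:123689042-123689150, minus strand, sequence from the GENCODE 29 transcript, GRCh38) are shown.
WASL exon 10: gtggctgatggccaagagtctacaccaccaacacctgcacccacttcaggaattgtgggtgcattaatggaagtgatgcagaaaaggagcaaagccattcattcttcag
The length of that exon is not a multiple of 3, so joining its neighbours shifts the reading frame of the annotated transcript.

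In GOLGA3, a Golgi golgin, the transcript ENST00000204726.9 had 0 of 36, 37 of 69, 13 of 27 and 41 of 43 reads, and ENST00000450791.8 had 34 of 36, 0 of 69, 11 of 27 and 0 of 43. A further transcript, ENST00000693666.1, was given 27 of the 69 knockdown reads and none in the other libraries. The single changes of the first summed to 102 points and the combined change was 95.3, near the ceiling. In SRPRB, a subunit of the signal recognition particle receptor, ENST00000466490.7 had 20 of 22, 0 of 17, 28 of 28 and 0 of 25 reads, so the estimated share in the combined library followed knockdown. ALDH1L2, a mitochondrial folate enzyme, followed azacytidine instead: ENST00000258494.14 had 0 of 9, 0 of 25, 36 of 39 and 25 of 27. For FBN1, the fibrillin gene, ENST00000559133.6 had 0 of 28, 6 of 50, 0 of 3 and 4 of 4, a change that rests on few reads. Over all genes, unannotated transcripts took 7.08%, 6.72%, 7.97% and 8.97% of transcript reads. The combined share was 1.89 points over control, while the single changes summed to 0.54, a departure of 1.35 points (1.18 to 1.53).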

How the data were processed

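RNA of 4 cultures of i3N neurons was sequenced as PacBio Iso-Seq libraries, 1 per group, with first strands made by MarathonRT. Reads were aligned to hg38 with minimap2, per the column names of the deposited tables, and transcripts not in the annotation carry the names that Bambu gives. The authors deposited estimated counts per gene, per transcript and for full-length reads, where ambiguous reads are split between transcripts, and counts of uniquely assigned reads per transcript. None was normalized. Their CPM table was not used. The deposited values are even to within 0.00031, so they were read as 2 counts per read, halved, and rounded where a test needed whole reads.

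The test set was the genes averaging 20 or more reads over the 4 libraries. For these, a two-sided binomial test, exact and given TMM effective sizes, compared pairs of libraries (edgeR 4.0.16, R 4.3.3), with Benjamini-Hochberg adjustment. Calls needed an adjusted p under 0.05 and a log2 ratio of at least 1 in size. Departures from the sum were tested by the exact conditional test of the 4 counts, with central 95% intervals. Loci and transcript usage were compared by Fisher's exact test (scipy 1.17.1) for features with at least 10 reads in genes with a mean of at least 20 transcript reads, and called at a change of at least 10 percentage points. Shares have Wilson intervals, and differences of shares have intervals built from these. Where a library had no read, a limit of 3 reads was used. The scripts were tested on simulated data.

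Named genes were TARDBP, the 10 highest and 10 lowest called genes and the 8 departures farthest each way, ranked by the interval bound nearest to 0, up to 4 called members and 2 departures per list, up to 10 loci, 4 transcripts each way, and up to 5 genes per arrangement of the single treatments. Other genes and loci in the text were added after their values were seen, as members of the lists or as called loci. The members, lists and rules were chosen with earlier results of these data known. Alternatives were other scalings (DESeq2 1.42.0 size factors among them), filters, pseudocounts, count types, thinning, a length correction and an additive edgeR model. edgeR's quasi-likelihood test could not be fitted to 1 library per group as the main test. A few list members that fall under the rule are not reported here.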

Additional observations from a re-analysis of the deposited data

Results flagged for a closer look

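These genes and loci stand out because the change with azacytidine differed with and without the TDP-43 guide by the exact test of the difference between the libraries' reads or, for loci, because the interval of the departure excluded 0. Each value is the departure of the combined change from the sum of the single changes, with no replicate check. Above the sum on the log2 scale were CROCCP3 at 5.06, KIAA0753 at 4.82, ANKRD10-IT1 at 4.74, BRCA1 at 4.71 and KIAA0408 at 3.32. ENSG00000291133, FAM153A and RFX4, with no read under azacytidine alone, were at 5.03, 2.94 and 2.81 when that count was set to the limit of 3 reads. Below the sum were MYO5B at -6.55, LINC01876 at -6.46, ENSG00000282936 at -5.32, ARNT2-DT at -4.83 and PLCB4 at -4.13. LINC02315, ZNF460 and LINC01505, with no combined read, were at -8.80, -6.27 and -5.23 at that limit. All genes named as below the sum here except PLCB4 reached the read minimum only through the single-treatment libraries, which favours such a departure. KIAA0753 and ENSG00000282936 share their coordinates, and their summed reads gave no call. All genes named as above the sum here except BRCA1 and KIAA0408 reached the read minimum only through the control and combined libraries. That route favours a departure above the sum. ENSG00000291133 is overlapped on the same strand by DPY19L2P1, BRCA1 by BRCA1P1 and ARNT2-DT by LINC00927, and those reads were not summed. Unannotated exon loci above the sum were those of FAM20B at 85.2 percentage points, ZNF423 at 51.9, SNAP91 at 42.2 and UBASH3B at 31.5. For FAM20B the summed loss was larger than a share can drop. These shares are of estimated counts, and the uniquely assigned reads in the 4 libraries were 2, 2, 2 and 3 for FAM20B, 0, 1, 0 and 6 for ZNF423, 0, 1, 2 and 3 for SNAP91, and 0, 3, 0 and 5 for UBASH3B.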

How the results depend on the processing

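Scaling by total reads or DESeq2 size factors, a pseudocount of 2 reads and removing the length trend kept the counts of higher and lower genes within 1.5 times, and 1866 and 1857 of the 1925 called genes remained called under the first 2. A mean of at least 5 reads gave 1633 lower genes, and no filter 1464. Without halving the counts, 1462 genes were higher and 1652 lower, with 620 departures above and 1205 below the sum, 67 loci higher and 21 lower, and 1975 transcripts higher and 2012 lower. Uniquely assigned reads left 2982 genes to test, with 182 higher, 227 lower, and 10 and 43 departures above and below. Thinning to the smallest library gave 282 departures below. The additive edgeR model called 99 genes higher and 181 lower, all 280 among the 1925. Loci came to 3 higher and 0 lower with uniquely assigned reads (62 tested), 5 and 0 with full-length reads (25 tested) and 8 and 2 at 20 reads and a gene mean of 40 (42 tested). Transcripts came to 26 and 28, 10 and 17, and 322 and 369 under the same 3 settings. The unannotated share rose by 2.34 and 2.56 points with uniquely assigned and full-length reads. With uniquely assigned reads, the log2 ratio of ELAVL4 became -0.16 and that of RBFOX1 -1.40, and the departure of ELAVL2 became 0.45. The causes were not tested. Added after seeing the data, summing reads with KIAA0753 turned the departure of ENSG00000282936 to 0.66. No paired analysis was possible because each group holds a single library. The intervals cover counting error, and replicate error is unknown.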
